A study of Mus musculus with 6 samples.

Results

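The keratins that mark the luminal and the basal layer of the mammary epithelium were followed through 3 disease states of the C3(1)-Tag (C3TAG) mouse, in single cells sorted into classes without the use of any keratin. The 10 genes, of 31055 counted features, were the basal keratins Krt5, Krt14, Krt15, Krt17 and Krt6a, the luminal keratins Krt7, Krt8, Krt18 and Krt19, and Krt80, which entered neither sum. All 6 libraries came from female mice carrying the transgene, in which a fragment of the rat C3(1) prostatein promoter drives the SV40 large T antigen in mammary epithelium, so that the Prepuberty libraries carry the transgene too and no library is free of it. The states were Prepuberty (whole gland at 5 weeks), DCIS (whole gland with ductal carcinoma in situ at 14 weeks) and Tumor (palpable tumour at over 18 weeks), with 2 libraries each. Whether the libraries of a state came from separate mice is not said in the labels, and the p-values below measure the spread between libraries, which may be technical. The study's methods, unlike the labels, give another dissociation kit for both tumours, which cannot be told apart from the Tumor state, and a later library kit for Tumor 2 alone, which cannot be told apart from the differences between the tumours.

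Keratins are the intermediate filament proteins of epithelial cells. A filament is built from obligate pairs of an acidic type I and a basic type II keratin, and a cell layer is recognised by the pair it makes. In the mammary gland, KRT8 and KRT18 with KRT7 and KRT19 are the keratins of the inner, luminal layer, and KRT5 and KRT14 with KRT17 are those of the outer, myoepithelial layer, which also holds the contractile proteins.

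The genes of these partners lie in clusters. On the GRCm38 assembly with the GENCODE M21 annotation, Krt5 (chromosome 15, 101707070 to 101712898), Krt6a (101689910 to 101694307), Krt7 (101411043 to 101430313), Krt8 (101996698 to 102004482) and Krt80 (101347444 to 101370162) are on chromosome 15 with the type II genes. Krt14 (chromosome 11, 100203162 to 100207548), Krt15 (100131758 to 100135928), Krt17 (100256217 to 100261029) and Krt19 (100140810 to 100148665) are on chromosome 11 with the type I genes. Krt18 (102028180 to 102032027) is the exception, a type I gene on chromosome 15, and its start lies 23.7 kb from that of its partner Krt8. Since these partners are set against each other throughout, 100 bases of the promoter of each are shown, 5′ to 3′ on the gene's own strand, from the RefSeq promoter windows of GRCm38.p6. For Krt5 and Krt14 they are the last bases before the RefSeq start, and for Krt8 and Krt18 the nearest stretch that overlaps no exon of the annotation. The RefSeq start of Krt14 lies inside the longer GENCODE gene. Its stretch is therefore part of that gene, and the bases before the GENCODE start of Krt14 were not searched. Capitals mark matches, on either strand, to ATAAAA or to the AP-2 motif GCCNNNGGC.
Krt5, chr15:101712906-101713005, minus strand: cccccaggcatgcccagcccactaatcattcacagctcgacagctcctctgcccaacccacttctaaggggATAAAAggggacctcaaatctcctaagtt
Krt14, chr11:100206031-100206130, minus strand: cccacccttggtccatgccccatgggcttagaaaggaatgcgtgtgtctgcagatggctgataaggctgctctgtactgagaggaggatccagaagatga
Krt8, chr15:102004483-102004582, minus strand: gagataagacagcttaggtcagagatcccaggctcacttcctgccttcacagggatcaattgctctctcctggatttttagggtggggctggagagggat
Krt18, chr15:102028080-102028179, plus strand: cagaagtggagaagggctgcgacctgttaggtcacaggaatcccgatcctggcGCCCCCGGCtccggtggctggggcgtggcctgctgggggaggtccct
The ATAAAA match of Krt5 starts 29 bases before its start site, and the AP-2 match of Krt18 starts 83 bases before its own. Over the 250 bases before the start, 17% of the 32851 promoters of the table held ATAAAA and 13.7% held GCCNNNGGC. None of these 4 promoters held TATAAA (12.4% of all), TGANTCA (6.75%, the AP-1 motif) or GGGCGG (32.7%, the GC box) in that window, and a match is a description of the letters, not a site. Krt7 also had an entry, not shown for want of 100 bases free of exons. Its window held GGGCGG 4 times, GCCNNNGGC 2 times and ATAAAA 1 time, but no TATAAA or TGANTCA. The table had no entry for Krt15, Krt17, Krt6a, Krt19 and Krt80.

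After filters on genes, mitochondrial share and doublets, 21564 cells with 237597373 UMIs remained, 2552 to 4316 per library, with median UMI counts per cell from 6551 to 13641. A myoepithelial cell had at least 3 of 5 contractile genes (Acta2, Myh11, Mylk, Cnn1, Tagln) and at least 2 of 8 basal epithelial genes (Trp63, Oxtr, Cdh3, Il17b, Col17a1, Lamb3, Lama3, Sostdc1). An Epcam-positive cell had at least 1 UMI of the epithelial adhesion gene Epcam and was not myoepithelial, and a T-antigen-positive cell had at least 1 UMI of the transgene and was not myoepithelial. These gates held 9238, 794 and 4288 cells, and 3973 cells were both T-antigen-positive and Epcam-positive. In the order used for all values below, namely libraries 1 and 2 of Prepuberty, then of DCIS, then of Tumor, there were 977, 200, 1580, 1213, 3520 and 1748 Epcam-positive cells and 72, 61, 150, 504, 2 and 5 myoepithelial cells. The Tumor libraries therefore entered no test of myoepithelial cells. The share of Epcam-positive cells with T antigen was 11.2%, 1.5%, 23.9%, 14.7%, 67.0% and 54.1%. Other lineages were rare among Epcam-positive cells by Ptprc (0.512% to 3.24% of cells) and less so by Pecam1 (5.32% to 14.7%) and Pdgfra (5.45% to 22.6%), and their part in the results was tested only by leaving out cells with Ptprc or Pecam1. Values are CPM, the UMIs of a gene scaled to the same total of UMIs in each class and library. A 3′ library counts a transcript once whatever its length, so levels of different genes can be set side by side. Reads that fit close relatives such as Krt6a and Krt6b, or Krt14, Krt16 and Krt17, can be lost or misassigned, and the levels of these genes are uncertain to that extent.

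**Figure D1:**
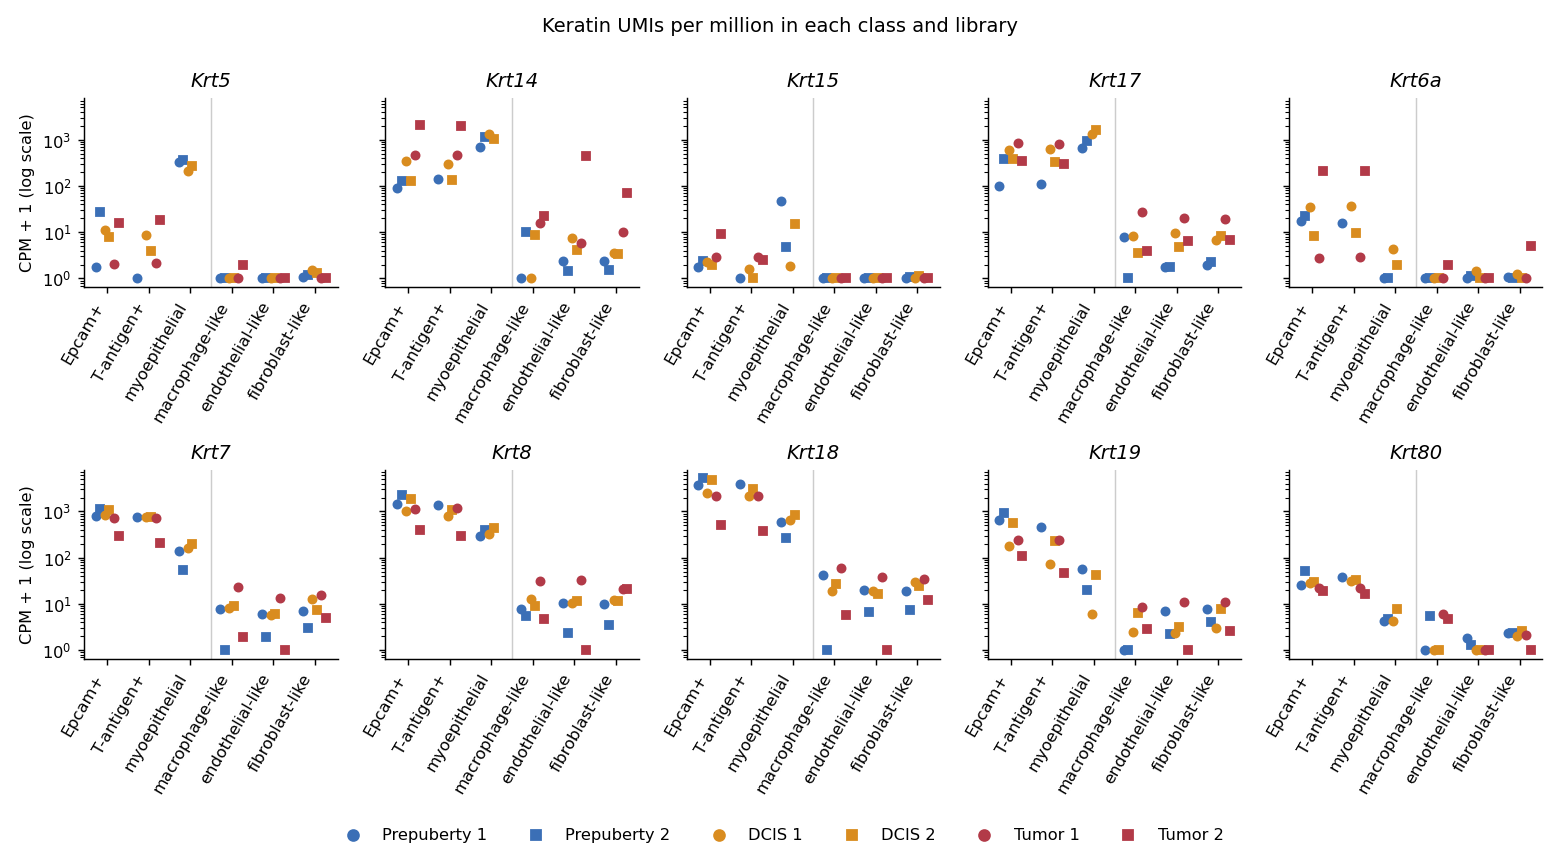
Each panel gives 1 keratin, with CPM + 1 on a log axis and a point per library for Epcam-positive, T-antigen-positive and myoepithelial cells (left of the grey line) and for the 3 background classes without Epcam or T-antigen UMIs (right of it); points need at least 10 cells. Krt5 separates myoepithelial cells (208 to 357 CPM) from Epcam-positive cells (0.776 to 26.6), and Krt14 and Krt6a are highest in Tumor 2 among the Epcam-positive sums (2049 and 211).

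Every keratin of the list differed between the 2 layers in the fit over libraries, although the gates used none of them. Within the 4 Prepuberty and DCIS libraries, all 10 genes differed between myoepithelial and Epcam-positive cells, 4 higher and 6 lower in myoepithelial cells, where 29.6% of the 11524 genes tested differed, 13.3% higher and 16.3% lower (edgeR quasi-likelihood test with the library as a block, adjusted p under 0.05). Krt5, the type II partner of basal cells, had the widest gap. It stood at 334, 357, 208 and 266 CPM in myoepithelial cells and at 0.776, 26.6, 10.4 and 7.02 CPM in Epcam-positive cells of the same libraries. The groups did not overlap, and the log2 fold change was 5.35 (SE 0.63, adjusted p 0.000171).

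Krt14, the type I partner of Krt5, was less exclusive. Its levels were 705, 1149, 1362 and 1018 CPM in myoepithelial cells and 89.7, 126, 341 and 130 CPM in Epcam-positive cells, a log2 fold change of 2.91 (SE 0.19, adjusted p 1.21e-05). Krt17, a type I keratin of basal and injured epithelium, was the least exclusive of the 4 basal keratins that were higher, at 660, 947, 1332 and 1653 against 96.6, 380, 593 and 377 CPM (log2 fold change 1.97, SE 0.25, adjusted p 0.000271). Krt15, a type I keratin of basal cells in stratified epithelia, was scarce and uneven, with 46.8, 3.77, 0.824 and 14.0 CPM in myoepithelial cells (28, 2, 1 and 58 UMIs) and 0.776, 1.40, 1.24 and 0.944 CPM in Epcam-positive cells (log2 fold change 3.69, SE 0.79, adjusted p 0.0056). The groups overlapped for Krt15, and in DCIS 1, with 1 UMI in myoepithelial cells, the difference ran the other way. Krt6a, a type II keratin known from wounded and hyperproliferative epithelium, belonged to the basal list but ran the other way. It had 0, 0, 4 and 4 UMIs in myoepithelial cells against 250, 61, 636 and 124 UMIs in Epcam-positive cells (log2 fold change -3.40, SE 0.46, adjusted p 0.000376).

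The luminal keratins were lower in myoepithelial cells but not absent from them. Krt18 stood at 598, 268, 656 and 826 CPM in myoepithelial and 3759, 5167, 2521 and 4756 CPM in Epcam-positive cells (log2 fold change -2.68, SE 0.36, adjusted p 0.000355). Krt8 stood at 291, 396, 328 and 428 against 1439, 2233, 1016 and 1817 CPM (-2.0, SE 0.21, adjusted p 8.47e-05). In the macrophage-like, endothelial-like and fibroblast-like cells of these 4 libraries Krt18 did not pass 41.3 CPM, below each of its levels in myoepithelial cells. The part of stray UMIs in the latter was not tested. The gap was wider for Krt7, a type II keratin of ductal epithelia (-2.71, SE 0.33, adjusted p 0.000184), and widest for Krt19, the short type I keratin of simple epithelia, at 55.1, 18.9, 4.94 and 40.4 CPM in myoepithelial and 659, 932, 180 and 554 CPM in Epcam-positive cells (-4.20, SE 0.33, adjusted p 2.02e-05). Krt80, a type II keratin found near the cell margin of differentiating epithelia, was low everywhere and higher in Epcam-positive cells (24.0, 51.5, 26.6 and 28.2 CPM) than in myoepithelial cells (3.34, 3.77, 3.29 and 6.74 CPM), with a log2 fold change of -2.46 (SE 0.31, adjusted p 0.00024). The same 10 calls, in the same directions, were made in every alternative fit in which the gene was tested, which for Krt15 left out the fit without DCIS 2. On leaving out 1 library the size moved most for Krt5 (4.63 without Prepuberty 1), Krt15 (2.74 without Prepuberty 1 and 4.47 without DCIS 1) and Krt80 (-3.05 without DCIS 2), and a stricter myoepithelial gate gave -3.18 for Krt80.

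**Figure D2:**
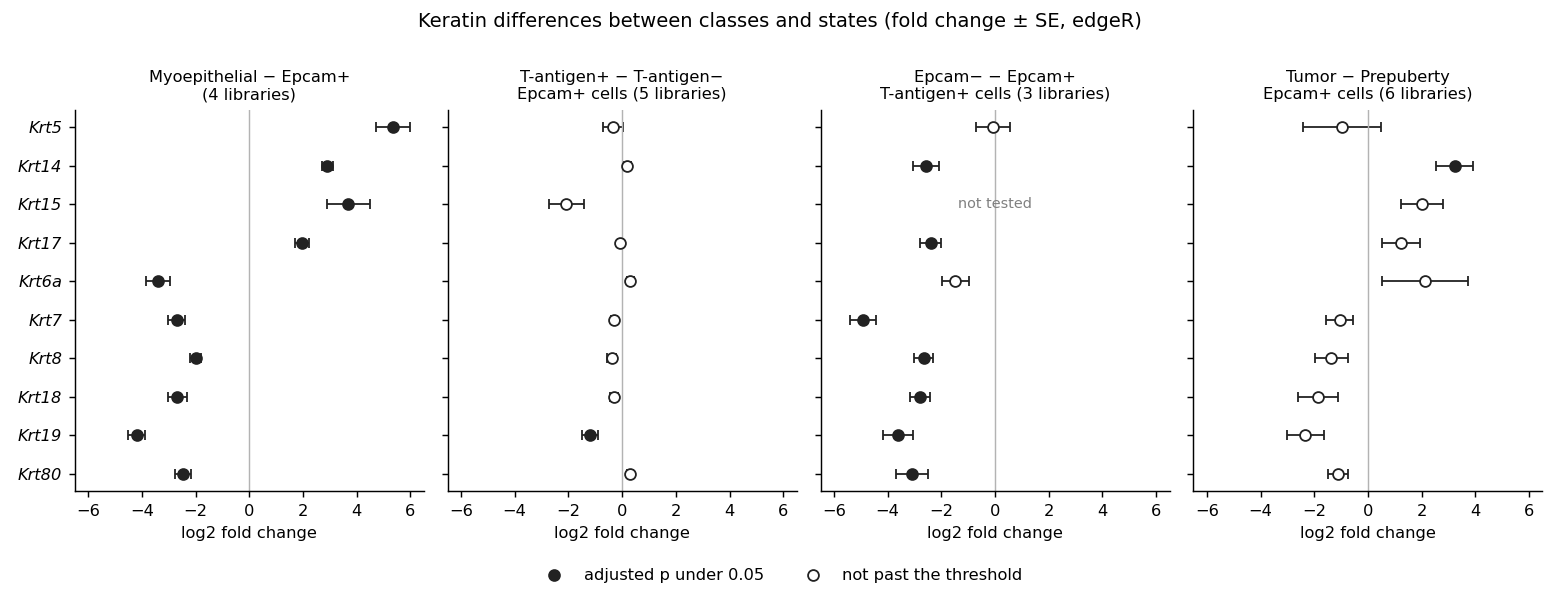
Log2 fold changes of the 10 keratins with their SE from edgeR, for 3 comparisons of cell classes within libraries and for Tumor against Prepuberty in Epcam-positive cells; filled points passed an adjusted p of 0.05. All 10 points are filled in the first panel, Krt19 alone in the second, 7 of 9 tested genes in the third and Krt14 alone in the fourth.

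Whether these classes drifted with disease was asked first in Epcam-positive cells. Between DCIS and Prepuberty 0 of 10 keratins passed the test, and 0 of 14047 genes did (0%). Before adjustment, 1639 of the 14047 genes (11.7%) and 0 of 10 keratins had a p under 0.05. For Tumor against DCIS 0 of 10 keratins passed, against 2.32% of all genes (0.605% higher and 1.72% lower). Between Tumor and Prepuberty 1 of 10 passed, against 5.57% of all genes (2.46% higher and 3.11% lower).

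The gene that passed was Krt14. Its levels were 89.7 and 126 CPM in Prepuberty, 341 and 130 in DCIS, and 463 and 2049 in Tumor, so that both Tumor libraries lay above all others and Tumor 2 far above Tumor 1. The log2 fold change from Prepuberty to Tumor was 3.23 (SE 0.70, adjusted p 0.0476). Without Tumor 2 it was 2.05 (adjusted p 0.0532), without Tumor 1 it was 3.87 (adjusted p 0.0191), and the call was lost in 8 of 15 alternative fits, which included leaving out either Prepuberty or either DCIS library. Krt5 did not follow its partner, with 0.776 and 26.6 CPM in Prepuberty, 10.4 and 7.02 in DCIS, and 1.04 and 15.2 in Tumor, and its states overlapped.

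Krt17 had 96.6 and 380 CPM in Prepuberty, 593 and 377 in DCIS, and 843 and 349 in Tumor, also with overlap. Krt6a divided the tumours most sharply: 16.2 and 21.4 CPM in Prepuberty and 34.3 and 7.31 in DCIS were followed by 1.74 in Tumor 1 and 211 in Tumor 2. Krt15 stayed at or under 1.96 CPM in 5 libraries and reached 8.23 CPM in Tumor 2 (275 UMIs).

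The luminal keratins were lowest in Tumor 2, and none passed the test. Krt18 stood at 3759 and 5167 CPM in Prepuberty, 2521 and 4756 in DCIS, and 2152 and 504 in Tumor (Tumor against Prepuberty log2 fold change -1.86, SE 0.74, adjusted p 0.155). Krt8 stood at 1439 and 2233, 1016 and 1817, and 1145 and 401 CPM. Krt7 stood at 776 and 1104, 855 and 1077, and 706 and 290 CPM. In Tumor 1 Krt8 lay within the range of the DCIS libraries and Krt18 and Krt7 just under it.

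Krt19 had 659 and 932 CPM in Prepuberty, 180 and 554 in DCIS, and 243 and 106 in Tumor, without overlap between Prepuberty and Tumor (log2 fold change -2.33, SE 0.68, adjusted p 0.0836). Krt80 varied least, from 18.3 to 51.5 CPM. With Tumor 2 as the only Tumor library, assumed to vary like the other groups, 7 of 10 keratins passed against Prepuberty, and 1853 of 14622 genes did: Krt14, Krt15 and Krt6a were higher and Krt7, Krt8, Krt18 and Krt19 lower. With Tumor 1 as the only Tumor library 0 of 10 passed, and 1367 of 14690 genes did. Against DCIS, Tumor 2 alone gave 5 keratins (Krt14 and Krt15 higher, Krt7, Krt8 and Krt18 lower) and 1703 genes. The tumours also differed in library kit, which cannot be told apart from their other differences, and the values of each are given rather than a Tumor mean.

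Ratios between keratins of a class were taken without reference to other genes, and they did not set Tumor 2 apart in each case. In Epcam-positive cells there were 116, 4.72, 32.9, 18.5, 447 and 135 Krt14 UMIs per Krt5 UMI, with the highest ratio in Tumor 1 and that of Tumor 2 next to Prepuberty 1, and in myoepithelial cells 2.11, 3.22, 6.56 and 3.82. In each of the 4 libraries with both classes the ratio was higher in Epcam-positive cells, by the smallest margin in Prepuberty 2. The Krt18 to Krt8 ratio of Epcam-positive cells was 2.61, 2.31, 2.48 and 2.62 in Prepuberty and DCIS and 1.88 and 1.26 in the tumours. Type I keratin UMIs exceeded type II UMIs by a factor of 1.89 to 2.04 in 5 libraries and 3.13 in Tumor 2. The 10 genes held 97.6% to 99.3% of all Krt UMIs of Epcam-positive cells, so the surplus of type I over type II was not taken up by other keratin genes. The basal keratins made up 2.98%, 5.56%, 17.7%, 5.98%, 23.6% and 66.9% of the luminal plus basal keratin UMIs.

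**Figure D3:**
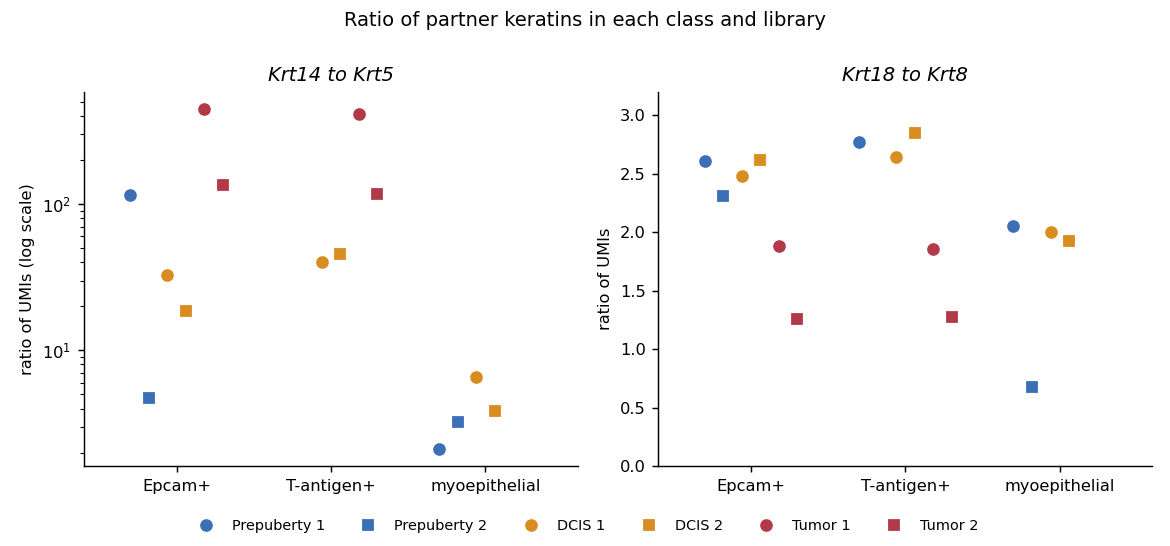
UMI ratios of Krt14 to Krt5 (left, log axis) and Krt18 to Krt8 (right, linear axis from 0) in Epcam-positive, T-antigen-positive and myoepithelial sums, a point per library. Krt14 to Krt5 is 2.11 to 6.56 in myoepithelial cells and 447 and 135 in Epcam-positive cells of the tumours; T-antigen-positive cells of Prepuberty 1 held 0 Krt5 UMIs and have no point.

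In myoepithelial cells 0 of 8 tested keratins differed between DCIS and Prepuberty, against 0.17% of 7063 genes (0.142% higher and 0.0283% lower). Krt6a and Krt80 had too few UMIs to be tested. Krt17 came nearest, at 660 and 947 CPM in Prepuberty and 1332 and 1653 in DCIS without overlap (log2 fold change 1.14, SE 0.31, adjusted p 0.16). Krt7 (140, 52.8, 160 and 194 CPM) and Krt18 (598, 268, 656 and 826) also had an unadjusted p under 0.05, with log2 fold changes of 1.06 (SE 0.43, adjusted p 0.248) and 0.97 (SE 0.42, adjusted p 0.277). Both passed without Prepuberty 1 (2.11 and 1.83, beside 128 of 8527 genes), and without DCIS 2 Krt15 and Krt19 passed as lower (-4.48 and -2.60, beside 195 of 6857 genes), so that 1 library decided these values. Krt14 overlapped between the states, and Krt5 was 334 and 357 against 208 and 266 CPM (-0.31, SE 0.25, adjusted p 0.555). The gap between the layers was also compared between the states by an interaction term. It passed for 0 of 10 keratins, against 0.408% of genes (0.234% higher and 0.174% lower), and Krt18 had the smallest p (1.41, SE 0.50, adjusted p 0.221). For Krt5 the term was -0.74, but 1.33 without Prepuberty 1 and -3.72 without Prepuberty 2, past the threshold both times. Krt18, Krt7 and Krt19 also passed without Prepuberty 1 (2.32, 2.22 and 1.79), Krt15 without Prepuberty 2 (-2.87) and Krt18 without DCIS 2 (1.79), fits in which 471, 410 and 344 genes passed.

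T-antigen-positive cells were Epcam-positive in 81.5% (Tumor 2) to 98.9% (DCIS 2) of cases in the 5 libraries used here, and those were compared with the Epcam-positive cells without T antigen of the same library. In these libraries, which had enough cells of both kinds, T-antigen-positive and T-antigen-negative Epcam-positive cells differed in 1 of 10 keratins, against 8.13% of all genes (2.15% higher and 5.99% lower with T antigen). Krt19 had 476, 71.3, 226, 245 and 52.5 CPM with T antigen and 710, 243, 660, 237 and 218 CPM without it in Prepuberty 1, DCIS 1, DCIS 2, Tumor 1 and Tumor 2. It was lower with T antigen in 4 of the 5 libraries, all but Tumor 1 (log2 fold change -1.20, SE 0.29, adjusted p 0.0409). The call was lost without Prepuberty 1 (-1.36), DCIS 1 (-1.05), DCIS 2 (-1.10) or Tumor 2 (-0.98) and held without Tumor 1 (-1.52), where Krt15 passed as well (-3.33). Krt14 had 140, 308, 132, 467 and 2165 CPM with T antigen and 75.6, 360, 129, 450 and 1811 CPM without it, and its difference was 0.17 (SE 0.14, adjusted p 0.515). The gate can miss cells with T antigen, and a stray UMI can admit a cell without it. Exactly 1 T-antigen UMI was held by 80 of 115, 245 of 388, 122 of 180, 629 of 2440 and 545 of 1161 T-antigen-positive cells. T-antigen-positive Epcam-positive cells had more UMIs (median 27861, 15366, 22868, 15244 and 20963) than negative ones (10611, 7557, 8102, 7955 and 11146). The part of this depth in the comparison was not tested.

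Between the Tumor and DCIS libraries, T-antigen-positive cells differed in 0 of 10 keratins, against 0.418% of 13166 genes (0.0911% higher and 0.327% lower). Krt14 had 305 and 132 CPM in the DCIS libraries, against 459 and 2020 in the tumours (log2 fold change 2.04, SE 0.68, adjusted p 0.172), and Krt80 at 30.1 and 31.7 against 20.9 and 15.7 (-1.07, SE 0.36, adjusted p 0.178), both without overlap. This count also turned on the tumour: with Tumor 2 as the only Tumor library 8 keratins passed, beside 2995 of 12511 genes, and with Tumor 1 alone 1 keratin, beside 2318 of 12378 genes. It was Krt6a, which was lower (-3.70, adjusted p 0.00532) where Tumor 2 alone gave a higher value (2.68, adjusted p 0.00579). The difference by T antigen, compared between Tumor and DCIS by an interaction term, passed for 0 of 10 keratins (0.143% of genes, 0.116% higher and 0.0272% lower), for Krt5 and Krt14 without Tumor 1 (1.43 and 0.49, beside 384 genes), and for Krt7, Krt8, Krt18 and Krt19 without Tumor 2 (0.68, 1.16, 0.93 and 1.85, beside 468 genes).

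T-antigen-positive cells without an Epcam UMI were a small class, 315 cells in all, of which 80 came from Tumor 1 and 215 from Tumor 2. The label of many rests on a single transcript, since 10 of 11 in DCIS 1, 57 of 80 in Tumor 1 and 95 of 215 in Tumor 2 had exactly 1 T-antigen UMI, and the part of stray transgene UMIs in other cell types was not tested. Compared with T-antigen-positive, Epcam-positive cells of the same library in DCIS 1 (11 cells), Tumor 1 and Tumor 2, 7 of 9 tested keratins were lower and 0 higher, where 9.74% of all genes differed, 5.54% higher and 4.2% lower. Krt7 had 0, 64.1 and 4.08 CPM against 767, 717 and 243 (log2 fold change -4.93, SE 0.49, adjusted p 7.23e-08). Krt19 had 0, 54.5 and 0.961 CPM against 71.3, 245 and 52.5 (-3.62, SE 0.55, adjusted p 2.7e-05). Krt18 had 115, 394 and 118 CPM against 2165, 2213 and 431 (-2.80, SE 0.36, adjusted p 2.73e-06). Krt8 (-2.66), Krt80 (-3.11) and Krt17 (-2.40) were lower as well.

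Krt14 was lower overall (-2.57, SE 0.48, adjusted p 0.000439) but kept much of its level in Tumor 2. It had 0, 39.5 and 1238 CPM without Epcam against 308, 467 and 2165 with it, and in Tumor 2 the background classes had 21.9 (macrophage-like), 69.0 (fibroblast-like) and 437 CPM (endothelial-like, where 2 of 25 cells held all 82 UMIs). Without DCIS 1 its value was -2.07 with an adjusted p of 0.1, and without Tumor 2 it was -4.06. Krt80 lost its call without Tumor 2 (-2.30, adjusted p 0.301). The calls of the others held without any 1 library, but the values of Krt7 and Krt19 ran from -6.26 and -5.87 without Tumor 1 to -4.30 and -2.52 without Tumor 2. Krt5 and Krt6a did not pass, and both rested on Tumor 2 (89 and 451 UMIs, against 0 and 0 in DCIS 1 and Tumor 1), while Krt15 had too few UMIs to be tested. In Tumor 2 the class also differed from epithelium by other markers: 61.9% of its cells had the fibroblast gene Pdgfra and 2.33% the epithelial cadherin gene Cdh1, against 17.3% and 76.5% of T-antigen-positive, Epcam-positive cells. In Tumor 1 these shares were 12.5% and 8.75% against 5.85% and 62.5%, and the leukocyte gene Ptprc was seen in 12.5% of the class against 1.31%.

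Single cells were used to ask whether luminal and basal keratins were mixed within a cell or carried by different cells of a class. Each cell was thinned to 3000 UMIs, so that all were compared at the same depth, and was counted as having both if it kept at least 1 UMI of the luminal and 1 of the basal keratins. Cells with fewer UMIs were left out, 116, 26, 193, 117, 222 and 93 of the Epcam-positive cells. The share of Epcam-positive cells with both was 23.8% (95% exact binomial interval 21.0 to 26.8), 40.8% (33.4 to 48.5), 52.9% (50.3 to 55.6), 36.1% (33.3 to 39.1), 76.9% (75.4 to 78.4) and 69.1% (66.8 to 71.3). Both tumours lay above both DCIS libraries, while DCIS 2 lay below Prepuberty 2 (means 32.3 ± 12, 44.5 ± 11.9 and 73.0 ± 5.52%, SD, n = 2). Cells with neither kind made up 18.1%, 19.5%, 13.3%, 7.85%, 4.64% and 4.77%. This share was highest in Prepuberty and lowest in Tumor, and its part in the share with both was not tested. These intervals cover counting error only, and 2 libraries against 2 cannot give a two-sided exact permutation p under 0.333, so no test was made.

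Without thinning the shares were 42.3%, 56.5%, 63.4%, 52.7%, 87.0% and 88.6%. In myoepithelial cells they were 63.4%, 76.7%, 80.4% and 78.0% after thinning, so that detecting both kinds of keratin was the rule in this layer in either state. T-antigen-positive cells had both in 41.2% (Prepuberty 1), 63.7%, 44.8%, 79.0% and 61.6%. Cells that should lack keratins had both in far lower shares, namely 0% to 2.97% of macrophage-like, 0% to 4.55% of endothelial-like and 0% to 3.57% of fibroblast-like cells, highest in Tumor 1 for each. At least 1 UMI of a single kind was more frequent there, up to 31.7% for luminal (macrophage-like cells of Tumor 1) and 16.1% for basal keratins (fibroblast-like cells of Tumor 2). A cell that makes one kind needs only a stray UMI of the other to count as having both, and the part of such UMIs was not tested. With small classes a share of 0 still allows up to 18.8% by the limit of 3 counts (endothelial-like cells of Tumor 2, 16 cells). The median depth of these background classes before thinning was 5529 to 11249 UMIs, against 7348 to 16112 for Epcam-positive cells.

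**Figure D4:**
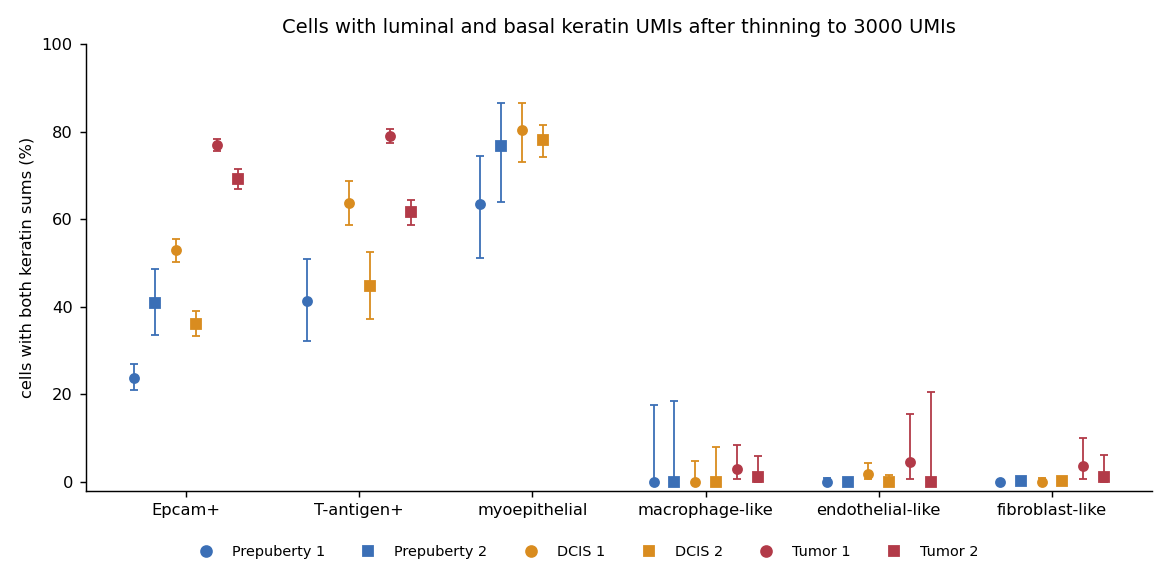
Share of cells with at least 1 luminal and at least 1 basal keratin UMI after thinning to 3000 UMIs, a point per library and class with its 95% exact binomial interval. Epcam-positive cells range from 23.8% to 76.9%, myoepithelial cells from 63.4% to 80.4%, and the 3 background classes from 0% to 4.55%.

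The state of the mixture differed by keratin. After thinning, Krt14 was seen in 14.6%, 23%, 38.4%, 17.8%, 51.0% and 83.4% of Epcam-positive cells, and Krt17 in 12.8%, 32.8%, 42.1%, 32.7%, 65.7% and 36.3%. Tumor 1 thus had the highest share of cells with Krt17 and Tumor 2 that with Krt14. Krt5 was seen in 0.232%, 14.9%, 3.32%, 3.19%, 0.212% and 2.78% of Epcam-positive cells and in 63.4%, 53.3%, 38.5% and 48.3% of myoepithelial cells. Krt18 was seen in 80.4%, 65.5%, 78.0%, 84.8%, 91.6% and 58.5%, lowest in Tumor 2. In that tumour 17.6% of Epcam-positive cells had basal keratin UMIs only, against 0.348% to 7.47% in the other libraries.

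The balance within a cell was measured in Epcam-positive cells with at least 10 luminal plus basal keratin UMIs, 734, 112, 1094, 978, 3067 and 1486 cells. The median basal share was 0.784%, 3.05%, 14.8%, 1.56%, 20% and 68.2%. Cells with a basal share of 10 to 90%, called mixed, made up 5.45%, 13.4%, 55.1%, 22.4%, 76.7% and 75.4% (means 9.42 ± 5.62 in Prepuberty, 38.8 ± 23.1 in DCIS and 76.0 ± 0.908% in Tumor, SD, n = 2). The tumours reached a like share of mixed cells from opposite sides: cells under 10% basal made up 23.1% in Tumor 1 and 6.19% in Tumor 2, and cells over 90% basal 0.228% and 18.4%. These classes are ranges of a continuous score, and 119, 21, 206, 200, 782 and 346 cells lay within 5 percentage points of a limit. The DCIS libraries lay far apart, and the tumours close together, in the share of mixed cells. In each library the median doublet score was higher in mixed cells than in cells under 10% basal. It was 0.0637 against 0.0536 in Tumor 1 and 0.0579 against 0.0399 in Tumor 2. The part of doublets that escaped removal was not tested.

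**Figure D5:**
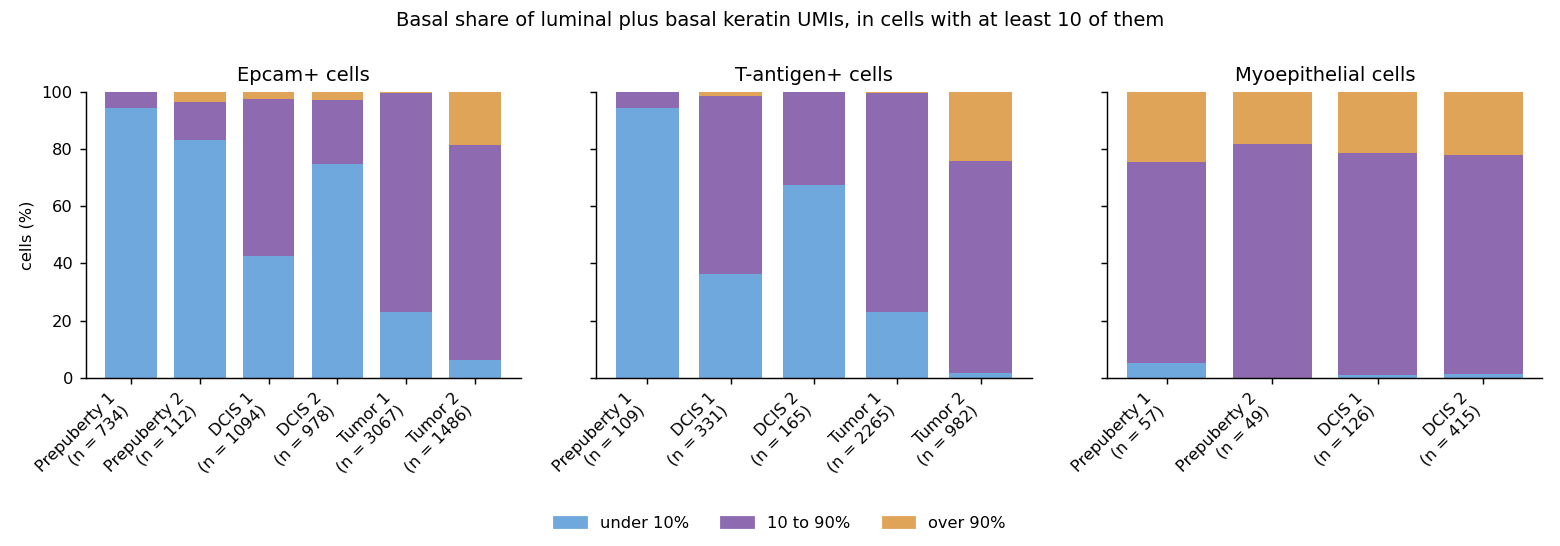
Stacked bars give the percent of cells by the basal share of their luminal plus basal keratin UMIs (under 10%, 10 to 90%, over 90%), for cells with at least 10 such UMIs, with the number of cells under each bar. Epcam-positive bars pass from 94.4% under 10% in Prepuberty 1 to 76.7% and 75.4% between the limits in the tumours, and myoepithelial bars hold 70.2% to 81.6% between them.

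The mixed Epcam-positive cells carried less Krt5 among their basal keratins than the mixed myoepithelial cells did. Krt5 made up 0.704%, 4.08%, 0.66%, 1.47%, 0.0834% and 0.502% of their basal keratin UMIs, and 17.1%, 13.6%, 7.74% and 9.47% in the mixed myoepithelial cells of Prepuberty and DCIS. In the mixed Epcam-positive cells Krt17 made up 60.1% to 70.3% in 5 libraries but 16.8% in Tumor 2, where Krt14 made up 75.6% and Krt6a 6.6%. In the mixed myoepithelial cells Krt17 made up 37.9% to 57.0%. Their Krt14 share of 33.1% to 45.6% overlapped that of mixed Epcam-positive cells outside Tumor 2, 27.0% to 35.6%. Krt14 without Krt5 was the pattern of 72.5%, 33.3%, 81.1%, 63.0%, 88.8% and 90.8% of mixed Epcam-positive cells, and of 12.5% to 38.8% of mixed myoepithelial cells.

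Contractile genes, which would mark myoepithelial cells that missed the gate, were checked in the same cells. At least 3 of the 5 were seen in 2.5%, 26.7%, 2.49%, 16.9%, 0.0851% and 0% of mixed Epcam-positive cells. Leaving those cells out gave mixed shares of 7.85%, 37.2% and 76.0% as means of Prepuberty, DCIS and Tumor. Cells that also had 2 basal epithelial genes had already been taken out by the gate. Single contractile genes did not move together in Tumor 2, where, among all Epcam-positive cells, Acta2 was seen in 0.744% (3.89% to 25.5% in the other libraries) but Cnn1 in 14.2% (1.84% to 7.34%) and Mylk in 15.0% (1.28% to 17.5%). Of the 8 basal epithelial genes of the gate, 5 had their highest share in Tumor 2, and Cdh3, Il17b and Oxtr did not. No such count was taken over all genes. Tumor 2 also had the deepest Epcam-positive cells, with a median of 16112 UMIs against 7348 to 12396 in the other libraries. The part of depth in these shares was not tested for Tumor 2. Among all its Epcam-positive cells, mixed or not, Trp63 was seen in 30.3% (0.614% to 4.5% in the other libraries), Lamb3 in 63.6% (17.1% to 37.3%), Lama3 in 22.3% (2.15% to 10%), Col17a1 in 15.7% (0.205% to 3.42%) and Sostdc1 in 2.75% (0.38% to 1.5%), without thinning. Epcam-positive cells with exactly 3 contractile or exactly 2 basal epithelial genes were counted whatever their number in the other set. They met 1 of the 2 limits of the gate and need not have been near the other. They made up 24.3% in Tumor 2, 12.2% in Tumor 1, 14% in Prepuberty 2 and 3.58% to 5.11% in the other libraries. The part of these cells in the mixed share was not tested. The depth of mixed and luminal cells did not move in 1 direction: mixed cells had fewer UMIs (median 8214 against 13804) in Prepuberty 1 and more (18955 against 9507) in Tumor 2. T antigen was seen in 73.5% of mixed and 72.4% of luminal cells in Tumor 1, and in 60.7% and 16.3% in Tumor 2, where the deeper cells were the mixed ones. The part of depth in that contrast was not tested.

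Genes that anchor keratin filaments were described with them. Of 20 genes of desmosomes and hemidesmosomes, which tie the filaments to neighbouring cells and to the basement membrane, 10 were higher and 5 lower in myoepithelial than in Epcam-positive cells, of 18 tested (median log2 fold change 0.79, against -0.06 over all genes, of which 13.3% were higher and 16.3% lower). The largest differences were those of Col17a1 (5.85, SE 0.60) and Lama3 (4.83, SE 0.41), which with Lamb3 also belong to the myoepithelial gate and so were used to define the class. Without these 3 genes, 7 of 15 were higher and 5 lower (median 0.38). Between T-antigen-positive cells without and with Epcam, 15 of 20 were lower and 1 higher (median -1.85, against -0.16 over all genes, of which 4.2% were lower and 5.54% higher), led by the desmosomal cadherin Dsg3 (adjusted p 1.06e-05), for which no fold is given because at most 2 UMIs per library were left, and by Lama3 (-4.42, SE 0.74, adjusted p 0.000115). Dst, a linker of keratin to hemidesmosomes that also binds other parts of the cytoskeleton, was the member that was higher (1.75, SE 0.38, adjusted p 0.00211). From Prepuberty to Tumor 3 of 20 were higher in Epcam-positive cells, against 2.46% of all genes, or 2 of 17 without the 3 gate genes. The 3 were Dsg3 (adjusted p 0.0452, with at most 1 UMI per Prepuberty library), the plakophilin Pkp1 (2.51, SE 0.45, adjusted p 0.0345) and Lamb3 (1.66, SE 0.37, adjusted p 0.0488). Between Tumor and DCIS 1 was higher, against 0.605% of all genes, the linker Plec (1.56, SE 0.29, adjusted p 0.0484). Each of these calls between states was lost in at least 1 fit that left out a library.

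Of 8 other intermediate filament genes, 6 were tested between the layers, and 2 were higher and 1 lower, against 13.3% and 16.3% of all genes. Synm (4.54, SE 0.34, adjusted p 1.75e-05), a filament protein of muscle, and Vim (1.35, SE 0.20, adjusted p 0.000677), that of mesenchymal cells, were higher in myoepithelial cells, and Lmnb1 was lower. Vim (3.26, SE 0.53, adjusted p 7.86e-05) and Des (4.45, SE 0.93, adjusted p 0.0013), the filament protein of muscle, were also higher in T-antigen-positive cells without Epcam. In T-antigen-positive cells 1 of 7 was higher in Tumor than in DCIS, against 0.0911% of all genes, namely Vim (3.88, SE 0.45, adjusted p 0.0476). The fibroblast gene Pdgfra was seen in 3.87% and 3.89% of these cells in DCIS and in 6.07% and 25.6% in Tumor, and 11 of 388, 2 of 180, 80 of 2440 and 215 of 1161 of them lacked Epcam. The part of both in that difference was not tested. For the same states, in Epcam-positive cells 1 of 8 was higher, against 0.605% of all genes, namely Nes (2.61, SE 0.41, adjusted p 0.0394). The call of Nes was lost in at least 1 fit that left out a library. Of the 43 other keratin genes, few were expressed, and 12 were tested between states in Epcam-positive cells. Krt16 was higher (3.03, SE 0.40, adjusted p 0.0249) and Krt4 lower (-6.49, SE 0.93, adjusted p 0.0256) in Tumor than in Prepuberty, where 2.46% of all genes were higher and 3.11% lower. Both calls were lost in at least 1 fit that left out a library.

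Of 5 regulators of the 2 layers, 4 differed between the classes, or 3 of 4 without the gate gene Trp63, as did 29.6% of all genes. The basal regulator Trp63 (5.83, SE 0.49), and Sox10 (1.49, SE 0.20, adjusted p 0.00037) were higher in myoepithelial cells. Elf5, which directs the secretory luminal lineage (-3.16, SE 0.59, adjusted p 0.00247), and Sox9 (-1.44, SE 0.16, adjusted p 0.000121) were lower. Gata3, a luminal regulator, was not past the threshold (-0.23, SE 0.23, adjusted p 0.502). Between states 0 of the 5 passed in Epcam-positive cells, where 5.57% of all genes did for Tumor against Prepuberty, 2.32% for Tumor against DCIS and 0% for DCIS against Prepuberty. The values nearest to it were those of Elf5 (-1.54, SE 0.44, adjusted p 0.0797) and Gata3 (-1.68, SE 0.54, adjusted p 0.0995) for Tumor against Prepuberty.

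The profile of each keratin over the 18 sums of the disjoint classes and libraries was compared with those of 12618 genes by the Pearson correlation of log2 CPM, as a description, since sums of 1 library share their depth and preparation. The gene nearest to Krt8 was Krt18, and Krt8 was that nearest to Krt18 (r = 0.97). Krt7 lay nearest to the tight junction gene Cldn3 (r = 0.99) and Krt5 to Dlk2, Oxtr, a gate gene, and Tns4 (r = 0.94, 0.94 and 0.93). The neighbours of Krt14 were Efna4, Lamb3, a gate gene, and Tspan2 (r = 0.97, 0.96 and 0.95). The other basal keratins had other neighbours, Vamp8 for Krt17 (r = 0.95), Col17a1, a gate gene, for Krt15 (r = 0.79) and Rdh10 for Krt6a (r = 0.93). For Krt19 and Krt80 they were Cd164l2 (r = 0.96) and Pglyrp1 (r = 0.97).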

How the data were processed

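Single-cell 3′ libraries (10x Genomics) of 6 samples were read as raw UMI counts per gene and barcode, deposited by the authors after Cell Ranger 3.0.2, per the file headers; mm10 is among the builds in the submitters' processing notes. Depth was 28590479 to 57397165 UMIs per library after filtering. Of 23835 barcodes, 546 had too few genes, 1045 over 10% mitochondrial UMIs, and 680 were removed as the highest doublet scores of Scrublet (scanpy 1.11.5), whose automatic threshold marked only 31. Library pairs shared 7 to 34 barcodes. Classes were set by the gates in the text. UMIs were summed per library and class and tested with edgeR 4.0.16 (TMM, filterByExpr, quasi-likelihood F test, Benjamini-Hochberg adjustment over all genes; R 4.3.3), comparisons of states with every library that had enough cells of the class in the fit (6 for Epcam-positive, 5 for T-antigen-positive and 4, without Tumor, for myoepithelial cells) and comparisons of classes with the library as a block. The log2 fold changes are those of edgeR, while CPM values were not TMM-scaled. Alternatives were DESeq2 1.42.0, other filters, gates and thinning depths, a replicate block, leaving out each library, and, chosen after seeing the data, leaving out Epcam-positive cells with contractile genes. On simulated data, 94.9% of genes changed by a log2 of 2 and 28.3% of those changed by 1 were recovered in the fit of states. Every simulated gene had the same fixed spread between libraries, so these shares do not carry over to genes that vary more. Equal replicate numbers did not pair the libraries (r = 0.137, -0.016 and 0.048 over 14047 genes). The keratins and gene lists were chosen with earlier results of these data known. All 10 keratins were named, with the 2 called genes of largest change in the lists of junction and other filament genes, the 5 lineage regulators, and the nearest genes of each keratin by correlation. Krt4, Krt16, Lmnb1, Dst and, as the third called junction gene, Lamb3 were named after their values were seen. Sex and age were taken from the labels.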

Additional observations from a re-analysis of the deposited data

How the results depend on the processing

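The 10 calls between myoepithelial and Epcam-positive cells held in every alternative that tested the gene, with 9 to 10 calls on leaving out 1 library. The comparisons of states were less firm. Without the filter on low counts, the keratins called numbered 2 for DCIS against Prepuberty, 6 for Tumor against DCIS and 8 for Tumor against Prepuberty in Epcam-positive cells, 3 in myoepithelial cells, 2 in T-antigen-positive cells and 3 for T antigen, beside 632, 2383, 2959, 501, 1777 and 1842 genes over all. DESeq2 called 1, 3, 1, 1 and 2 for the same comparisons after the first, beside 2048, 2560, 76, 1054 and 1381 genes over all. The call of Krt14 for Tumor against Prepuberty was lost (0 called) with a replicate block (log2 fold change 3.16), with only the libraries of these states (3.2), and without cells holding a Ptprc or Pecam1 UMI (3.11), against 3.23 as reported. The block changed no other call. With at least 2 Epcam UMIs, 3 keratins were called for T antigen, beside 368 genes. Leaving out 1 library gave 0 to 5 keratins for Tumor against DCIS (0 to 1703 genes over all), 0 to 7 for Tumor against Prepuberty (0 to 1853), 0 to 2 in myoepithelial cells (114 to 195), 0 to 8 in T-antigen-positive cells (1 to 2995), 0 to 2 for T antigen (467 to 1395), 6 to 7 for Epcam-negative cells (298 to 609) and 0 to 4 in each test of class by state (227 to 471 for the layers and 0 to 468 for T antigen). The cause was not tested. The share with both keratins, as means of Prepuberty, DCIS and Tumor, was 16.8%, 28.9% and 53.9% with at least 2 UMIs of each, 49.4%, 58.0% and 87.8% without thinning, 16.6%, 25.9% and 55.8% for Krt8 and Krt18 against Krt5 and Krt14, and 42.9%, 49.8% and 83.0% at 5000 UMIs. The mixed share of the same states was 3.98%, 25.9% and 51.8% with limits of 20% and 80%, and 5.75%, 24.8% and 59.6% for Krt8 and Krt18 against Krt5 and Krt14. The 2 libraries of a state, and the few myoepithelial cells of the tumours, limit what can be called.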
